A study of Mus musculus with 20 samples.

Results

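Macrophages of the choroid plexus were compared with the MHC II-low macrophages of the dura mater, both from C57BL/6JRj mice. The members were the libraries whose titles carry the choroid plexus macrophage code NCPM and those whose titles carry the dura code ME-MHCII-int, which were 4 and 4 libraries, or 8 of the 20 libraries in the series. For the dura libraries the title has "int" where the cell type field has "lo", and the name MHC II-low is used for them. The labels give strain, tissue and cell type, and no age, sex, treatment or method of isolation. Nothing in them says that replicates were separate animals. So each p-value measures only how the libraries fitted together spread, and that spread may be technical. The other 12 libraries, 4 each of MHC II-high dura macrophages, microglia and peritoneal macrophages, entered the same model. Their spread is thus part of each p-value, and their levels are given only where they place a value.

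The choroid plexus is the secretory tissue of the brain ventricles, a sheet of epithelium over a stroma of fibroblasts and fenestrated vessels, and it makes cerebrospinal fluid. The dura is the outermost membrane around the brain and holds vessels, lymphatics and collagen-producing fibroblasts. Macrophages live in both, and in border tissues they are commonly divided by MHC class II, which presents peptides to CD4+ T cells, and by receptors such as LYVE1, which binds hyaluronan, and the CD209 lectins, which bind sugars on microbes and host cells.

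Reads assigned to gene symbols numbered 13383274–16052955 in choroid plexus libraries and 26312505–30398564 in MHC II-low dura libraries. Levels are in CPM, the counts scaled to a common library total after TMM adjustment, and the floor of 3 counts in a single library is 0.0964–0.222 CPM, which covers counting error only. CPM is not divided by gene length, so a level is compared between libraries and not between genes. In bulk RNA, fewer cells of a type and less RNA per cell cannot be told apart. A gene was called when edgeR's quasi-likelihood test gave a Benjamini-Hochberg adjusted p under 0.05 over all 13960 genes tested and the change was at least 2-fold. A log2 fold change is choroid plexus over MHC II-low dura and is given ± its standard error. The macrophage core list gave no call by edgeR's test in 12 genes tested and none by DESeq2, while at an unadjusted p under 0.05 1 was higher and 3 were lower. Its largest changes at 10 CPM or more were in Mertk (-0.63), Itgam (-0.44), Lamp1 (-0.42) and Cd14 (0.36), all short of 2-fold. For Mertk and Lamp1 the adjusted p was under 0.05 in each of 17 alternative fits by edgeR or DESeq2, so the list was not level throughout. Csf1r, the receptor for colony stimulating factor 1, averaged 9882 ± 706 CPM in choroid plexus and 8293 ± 527 CPM in MHC II-low dura libraries (mean ± SD, n = 4 in each group here and below). Adgre1, which encodes the F4/80 antigen, averaged 2000.1 ± 195 CPM in the choroid plexus and 1780.1 ± 99.0 CPM in MHC II-low dura, and Ptprc, which encodes CD45, averaged 386 ± 37.7 CPM in choroid plexus and 407 ± 40.5 CPM in MHC II-low dura libraries. The libraries overlapped for Ptprc and also for Csf1r, whose log2 fold change was 0.25 ± 0.16 (adjusted p = 0.259).

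Epithelial transcripts of the choroid plexus marked its macrophage libraries. Ttr, which encodes the thyroid hormone carrier transthyretin, was at 3178, 2079, 2595 and 1936 CPM in the choroid plexus and 0.568, 0.964, 2.56 and 7.68 CPM in MHC II-low dura. Kl, which encodes the co-receptor klotho, was at 279.6, 148, 159 and 106 CPM in choroid plexus macrophages, against 0.454, 0, 0 and 0.881 CPM in MHC II-low dura macrophages. Folr1, an epithelial folate receptor, was at 63.2, 44.0, 50.7 and 39.2 CPM in choroid plexus libraries, against 0, 0.0643, 0.377 and 0 CPM in MHC II-low dura libraries. For all 3 genes, every choroid plexus library stood above every MHC II-low dura library, as a full separation of the groups in either direction did for 37.2% of all genes tested. Of the 20 epithelial genes tested, 19 were called higher and 0 lower, with a median log2 fold change of 8.52, against 0.01 over all genes tested. Genes called higher made up 8.63% of all genes tested and genes called lower 4.18%. Kcne2 and Krt18, which encode a potassium channel subunit and an epithelial keratin, had no counts in the MHC II-low dura libraries, and against 3 counts over that group they were at least 1412-fold and at least 548-fold higher. Summed over the list, the epithelial genes reached 8094, 5307, 5949 and 4276 CPM in choroid plexus libraries, against 19.3, 21.6, 28.5 and 32.9 CPM in MHC II-low dura libraries. Peritoneal macrophage libraries held 960–2072 CPM of the same list, so the sum is not particular to choroid plexus tissue.

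Fibroblast transcripts were highest in replicate 4 of the choroid plexus. Col1a1, a chain of type I collagen, was at 81.0, 62.7, 74.6 and 207 CPM in the choroid plexus and 56.5, 60.7, 56.4 and 42.9 CPM in MHC II-low dura. Replicate 4 stood above the other choroid plexus libraries, which ran close to the dura libraries, and the difference between the groups was not called (log2 fold change 0.98 ± 0.76, adjusted p = 0.366). Tcf21, a transcription factor of mesenchymal cells, was at 19.7, 17.0, 28.5 and 60.9 CPM in choroid plexus macrophages, against 0.303, 0.161, 1.09 and 0.211 CPM in MHC II-low dura macrophages. It did not overlap between the groups and was called (6.16 ± 1.47, adjusted p = 0.00682). Summed over the list, fibroblast genes reached 445, 375, 541 and 1289 CPM in choroid plexus libraries, against 211, 246, 177 and 186 CPM in MHC II-low dura libraries. Of 13 fibroblast genes tested, 4 were called higher, namely Tcf21, Pdgfra, Bgn and Mgp, and 1 lower, the transporter gene Slc47a1. Without replicate 4 the higher count was 3: the matrix gene Mgp had a log2 fold change of 2.28 with all libraries and of 1.73 without it, and was then not called, as it was not without MHC II-low dura replicate 1 (2.21). Slc47a1 was at 0–0.318 CPM in choroid plexus and 4.18–9.35 CPM in MHC II-low dura libraries, the opposite order to Tcf21. With microglia replicate 3 left out of the shared model, 6 fibroblast genes were called higher, Lum and Dcn among them.

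Gene lists of vessel and wall cells had smaller sums, and which cells held these transcripts was not tested. Endothelial genes summed to 162, 199.8, 164 and 130.4 CPM in choroid plexus libraries, against 42.2, 65.4, 71.1 and 49.4 CPM in MHC II-low dura libraries, with 8 of 12 called higher and 1 lower. Microglia libraries held 139–191 CPM of this list. Plvap, which builds the diaphragms of fenestrated capillaries, was at 49.0, 70.6, 54.8 and 31.8 CPM in choroid plexus libraries, against 1.55, 0.643, 2.34 and 0.599 CPM in MHC II-low dura libraries. Mural cell genes summed to 21.4–49.2 CPM in choroid plexus and 5.78–10.5 CPM in MHC II-low dura libraries, with 4 of 8 called higher. Ependymal genes summed to 10.1–14.8 CPM in choroid plexus and 0.416–1.19 CPM in MHC II-low dura. All 4 tested were called higher, and 2 without choroid plexus replicate 1 or 3 or MHC II-low dura replicate 1 or 3. No neuronal, oligodendrocyte or B cell gene, of 4, 7 and 4 tested, was called by edgeR's test, whereas DESeq2 called 2 neuronal genes lower and none of the others. Of 8 astrocyte genes, 2 were called lower, S100b and the connexin 43 gene Gja1 (-2.54), and 0 higher. At an unadjusted p under 0.05, 3 neuronal and 1 oligodendrocyte genes were lower, and 2 oligodendrocyte and 1 B cell genes were higher. Rn45s, the precursor of ribosomal RNA, was at 2627–3597 CPM in choroid plexus and 726–854 CPM in MHC II-low dura libraries, and its part in the results was not tested.

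**Figure D1:**
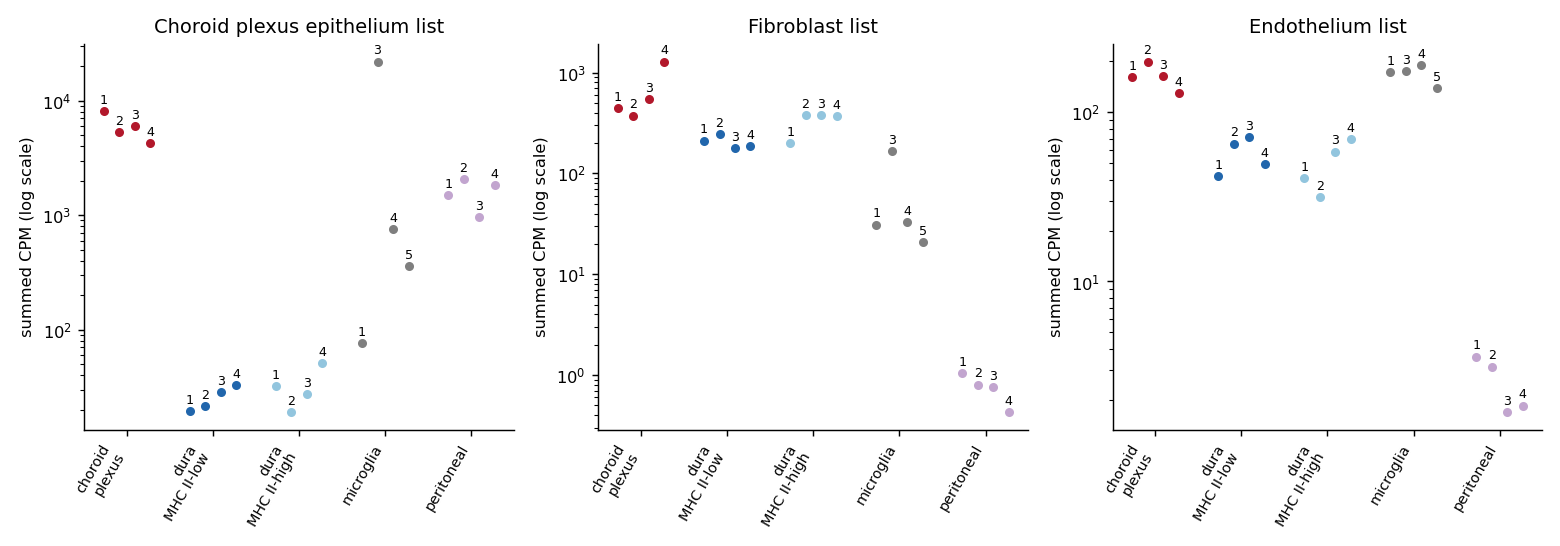
Summed levels of the epithelium, fibroblast and endothelium lists in each of the 20 libraries, in CPM on a log scale, with replicate numbers beside the points. The choroid plexus libraries sit at 4276–8094 CPM for epithelium and the MHC II-low dura libraries at 19.3–32.9 CPM, while microglia replicate 3 reaches 21958 CPM. Peritoneal libraries sit at 960–2072 CPM for epithelium.

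One microglia library held more of these epithelial transcripts than the choroid plexus libraries. Microglia replicate 3 held 21958 CPM of the list and the other microglia libraries 76.0–762 CPM. Genes at least 5 times higher there than in each other microglia library, at 1 CPM or more, are called the microglia 3 class. Genes at least 1.5 times higher in choroid plexus replicate 4 than in each other choroid plexus library are called the choroid plexus 4 class. Both classes were set after the values were seen, from libraries that stood out in the epithelial and fibroblast lists. That genes of these lists fall in the classes was therefore largely built in. For the epithelial list the choroid plexus mean was 0.205–0.587 times the level in microglia replicate 3, with a median of 0.306, and for the core macrophage list the median was 1.35. All 20 epithelial genes tested fell in the microglia 3 class, as did 7 of 13 fibroblast genes, and 11 of the 13 fibroblast genes fell in the choroid plexus 4 class. In the lists of border macrophage, core macrophage, microglia and MHC class II genes, 0 genes fell in the microglia 3 class. A gene that all microglia libraries express could hardly stand 5 times higher in one of them. The ratio reached at most 0.855 in the core list and 0.940 in the microglia list. So these counts of 0 do not tell where the transcripts of the lists came from.

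A total of 1788 genes were called, or 12.8% of those tested, with 1205 higher in the choroid plexus and 583 lower. Of the higher genes, 383 (31.8%) belonged to the microglia 3 class and 219 (18.2%) to the choroid plexus 4 class, and 660 (54.8%) to neither. Of the lower genes, 7 (1.20%) and 24 (4.12%) belonged to the classes and 553 (94.9%) to neither. Among the genes not called, 356 (2.92%) and 344 (2.83%) belonged to the classes and 11513 (94.6%) to neither. With the genes of both classes and of all lists of other cells taken out, 709 genes were called higher and 539 lower. The higher share of the calls was then 56.8%, against 67.4% with all genes. Without choroid plexus replicate 4, 1020 genes were called higher and 508 lower, and 1460 of these calls were shared with the full set.

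**Figure D2:**
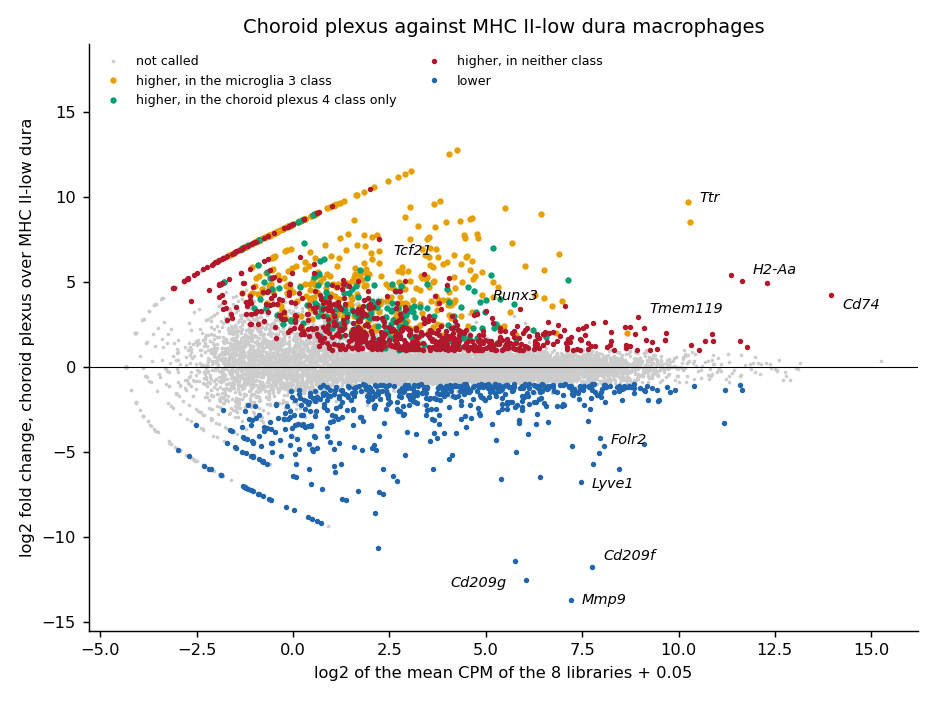
Log2 fold change of each tested gene, choroid plexus over MHC II-low dura, against the log2 mean CPM of the 8 libraries plus 0.05, coloured by call and class. Ttr and Tcf21 lie among the coloured classes, while H2-Aa, Cd74, Tmem119 and Runx3 are called higher outside them and Mmp9, Cd209f, Cd209g, Lyve1 and Folr2 are called lower.

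The 12 largest rises by the naming rule all fell in the microglia 3 class, which the rule favours. It asks for 5 CPM in another population, and 11 of the 12 met this through the microglia mean only, which replicate 3 lifts. Without that library 2 of the 12 would have met it. Named by size, they were Slc29a4, Car12, Kcnk1, Slco1c1, Elovl7, Ppp1r1b, Gpm6a, Slc7a10, Abca4, Sema3b, Moxd1 and Vat1l. Slc29a4, a monoamine transporter gene, was at 56.4, 30.9, 20.8 and 23.8 CPM in the choroid plexus and 0, 0, 0 and 0 CPM in MHC II-low dura, at least 1211-fold higher. Car12, which encodes a carbonic anhydrase, was at 64.1, 47.7, 50.4 and 29.6 CPM in choroid plexus macrophages, against 0, 0, 0 and 0.423 CPM in MHC II-low dura macrophages. Both were absent or near 0 in every MHC II-low dura library. The amino acid transporter gene Slc7a10 was called with all libraries (7.53) and in no fit without one of the MHC II-low dura libraries (7.14 to 11.91).

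A further 6 rises were in genes with means under 5 CPM in the other 3 populations, and all 6 fell in the choroid plexus 4 class and 4 of them in the microglia 3 class too. Adh1, an alcohol dehydrogenase gene, was at 49.8, 38.9, 61.3 and 139.6 CPM in choroid plexus libraries, against 1.40, 0.418, 0.377 and 0.0705 CPM in MHC II-low dura libraries. S1pr3, a receptor for sphingosine 1-phosphate, was at 22.1, 15.8, 25.4 and 58.3 CPM in the choroid plexus and 1.74, 0.257, 1.17 and 1.83 CPM in MHC II-low dura. In both, replicate 4 was the highest choroid plexus library. The naming rule takes only genes whose groups do not overlap. Dpep1, Inmt and Heph were among the others, with log2 fold changes of 5.62, 5.02 and 4.69. Whether these transcripts came from macrophages was not tested.

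**Figure D3:**
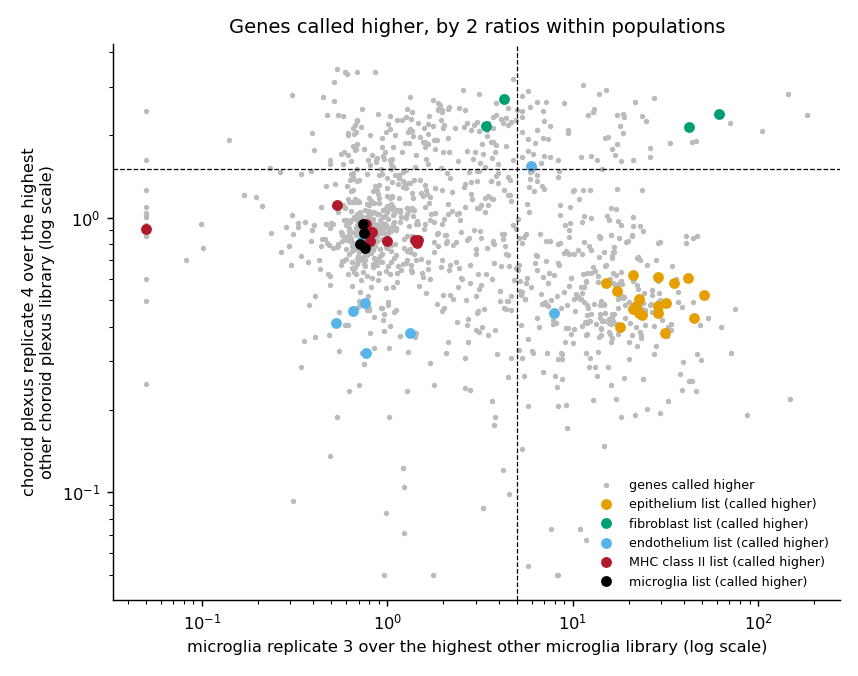
Each gene called higher, by its level in microglia replicate 3 over the highest other microglia library (horizontal) and in choroid plexus replicate 4 over the highest other choroid plexus library (vertical), both on log scales, with values under 0.05 drawn at 0.05. The dashed lines are the class limits of 5 and 1.5: the epithelial genes lie right of the first, the fibroblast genes above the second, and the MHC class II and microglia genes left of and below both.

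Many markers of border macrophages fell in the choroid plexus. Of 18 tested, 0 were called higher and 11 lower, with a median log2 fold change of -1.64. Lyve1, the hyaluronan receptor gene, was at 2.51, 4.68, 3.38 and 2.16 CPM in choroid plexus macrophages, against 348, 357, 408 and 291 CPM in MHC II-low dura macrophages (log2 fold change -6.78 ± 0.28, adjusted p = 2.79e-12). Folr2, a folate receptor gene of tissue macrophages, was at 25.2, 27.9, 27.6 and 23.4 CPM in choroid plexus libraries, against 512, 472, 468 and 446 CPM in MHC II-low dura libraries (-4.19 ± 0.19, adjusted p = 2.79e-12). Neither gene overlapped between the groups, and within each group the libraries lay close together. Folr2 shares 63.1% of its annotated exon bases with another gene model, whose symbol the count data do not hold. What this did to its counts was not tested.

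F13a1, which encodes the A chain of coagulation factor XIII, averaged 442 ± 53.4 CPM in the choroid plexus and 4224 ± 286 CPM in MHC II-low dura. Cd163, the haptoglobin-hemoglobin scavenger receptor gene, was at 294, 296, 279.8 and 246 CPM in the choroid plexus and 1326, 1063, 1057 and 1062 CPM in MHC II-low dura. Cbr2, a carbonyl reductase gene, averaged 293 ± 13.6 CPM in choroid plexus and 1139 ± 87.1 CPM in MHC II-low dura libraries. All 3 were lower in the choroid plexus. Mrc1, the mannose receptor gene, averaged 1836 ± 147 CPM in the choroid plexus and 4613 ± 86.2 CPM in MHC II-low dura (-1.33 ± 0.17, adjusted p = 9.69e-06), and Pf4, a chemokine gene, averaged 305 ± 20.7 CPM in choroid plexus and 717 ± 67.3 CPM in MHC II-low dura libraries (-1.23 ± 0.25, adjusted p = 0.00106). Ms4a7, a membrane protein gene of border macrophages, was not called and averaged 479 ± 21.3 CPM in the choroid plexus and 507 ± 26.6 CPM in MHC II-low dura. Clec12a, an inhibitory lectin gene, averaged 301 ± 17.2 CPM in choroid plexus and 234 ± 13.5 CPM in MHC II-low dura libraries, and Stab1, a scavenger receptor gene, averaged 1820.4 ± 345 CPM in the choroid plexus and 2960.0 ± 361 CPM in MHC II-low dura; neither was called.

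The Cd209 lectin genes held the widest differences among the border markers. Of 7 tested, 6 were called lower. Cd209f was at 0.0739, 0.132, 0.203 and 0.0635 CPM in choroid plexus macrophages, against 390.2, 449, 499 and 392 CPM in MHC II-low dura macrophages. The choroid plexus libraries were at or under the floor, and the fitted log2 fold change was -11.77, adjusted p = 1.49e-13. At such low counts the fit gives no bound on the size of the fall, and its standard error is left out. Cd209g had 1 count over the 4 choroid plexus libraries, against 14809 counts over the MHC II-low dura libraries, a ratio of 7798 in CPM (95% interval 1399–308023). Cd209b had 2 counts against 12063, a ratio of 3176 (879–26228), and Cd209d 1 count against 976, a ratio of 514 (92.02–20319.7). Cd209e had no counts in the choroid plexus libraries and 1.74–3.92 CPM in MHC II-low dura libraries, at least 49.0-fold lower in the choroid plexus. Cd209a, also a marker of some dendritic cells, was at 0.264–1.18 CPM in choroid plexus and 19.2–42.4 CPM in MHC II-low dura libraries (-5.38 ± 0.52, adjusted p = 4.58e-07). MHC II-high dura macrophages held Cd209f at 215–285 CPM, and microglia had no counts.

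Cd209f and Cd209g are close copies on mouse chromosome 8, at chr8:4102787-4105835 on the minus strand and chr8:4134098-4137707 on the plus strand of GRCm38 (mm10). Of the distinct 50-base windows in their annotated transcripts, 29.8% of those of Cd209f and 16.6% of those of Cd209g occur in the other gene, so reads in those stretches cannot be placed and the split between the pair is uncertain. No such window is shared among the other family members. The start regions of the pair are shown because both genes were among the largest falls and their start windows share a long run. The window of Cd209g lies within the gene span given above, so its RefSeq start differs from the start of that span. RefSeq windows of GRCm38.p6, 250 bases before to 50 after the start, share an unbroken run of 180 bases, in capitals below, and 83.2% of 286 aligned bases. Other pairs of the family had 29.1–43.8% identity by the same ungapped alignment.
Cd209f, chr8:4105715-4106014, minus strand: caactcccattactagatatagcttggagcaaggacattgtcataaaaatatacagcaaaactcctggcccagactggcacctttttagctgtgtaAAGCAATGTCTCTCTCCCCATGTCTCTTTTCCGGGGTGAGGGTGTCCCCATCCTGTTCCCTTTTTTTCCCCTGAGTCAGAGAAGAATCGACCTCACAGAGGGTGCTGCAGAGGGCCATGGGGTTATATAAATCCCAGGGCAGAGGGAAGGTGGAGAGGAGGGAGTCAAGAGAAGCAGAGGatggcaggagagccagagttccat
Cd209g, chr8:4134486-4134785, plus strand: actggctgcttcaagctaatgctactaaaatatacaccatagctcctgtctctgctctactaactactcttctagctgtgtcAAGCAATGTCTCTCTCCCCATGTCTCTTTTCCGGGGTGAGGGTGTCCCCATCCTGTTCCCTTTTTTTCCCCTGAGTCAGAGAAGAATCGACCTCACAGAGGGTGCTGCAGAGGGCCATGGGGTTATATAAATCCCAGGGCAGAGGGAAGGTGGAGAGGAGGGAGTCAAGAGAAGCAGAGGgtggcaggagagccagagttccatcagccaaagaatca
The letters TGAGTCA, the textbook binding letters of AP-1 factors, occur within the shared run. Searched on both strands, they occur in 1708 of 32817 RefSeq start windows (5.205%). The match is a description of letters and not of a bound site.

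**Figure D4:**
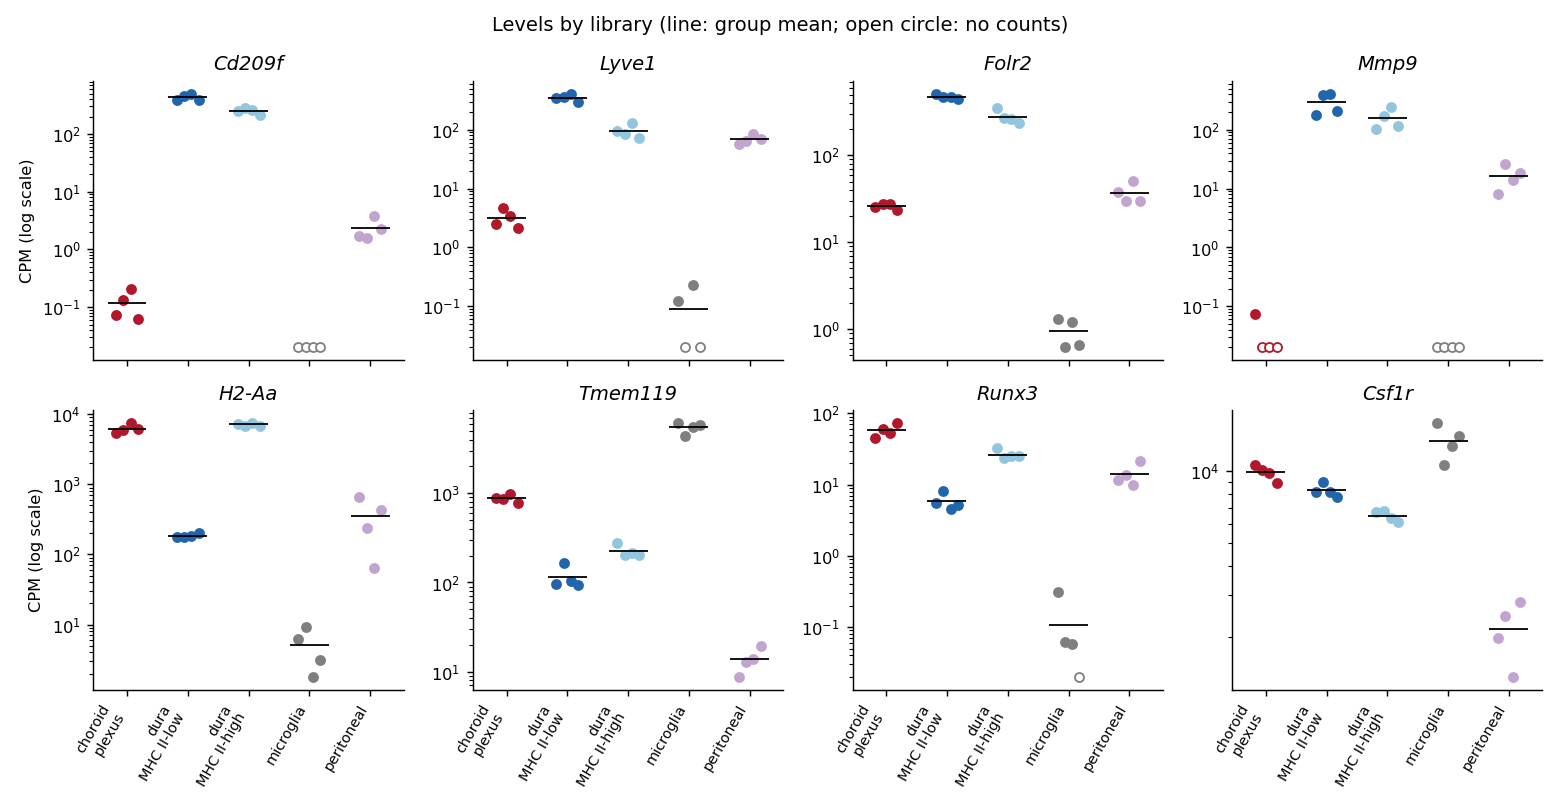
Levels of 8 genes in each library, in CPM on log scales that differ between panels, with group means as lines and libraries without counts as open circles. Cd209f, Lyve1, Folr2 and Mmp9 are lower in choroid plexus than in MHC II-low dura libraries, H2-Aa, Tmem119 and Runx3 are higher, and Csf1r is at 8944–10625 CPM against 7769.7–9027 CPM.

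Calls among lectins, scavenger receptors and genes of iron handling were mostly of lower genes. Of 16 other C-type lectin receptor genes, 0 were called higher and 8 lower. Clec10a, a receptor for galactose-type sugars, was at 16.3, 10.02, 15.2 and 14.6 CPM in choroid plexus libraries, against 496, 461, 518 and 414 CPM in MHC II-low dura libraries (-5.07 ± 0.25, adjusted p = 1.83e-11). Clec4n, which encodes dectin-2, averaged 41.0 ± 3.83 CPM in choroid plexus and 361 ± 37.0 CPM in MHC II-low dura libraries, and Mgl2, a second galactose-type lectin gene, averaged 108 ± 16.8 CPM in the choroid plexus and 438 ± 93.5 CPM in MHC II-low dura. None of these overlapped between the groups. The call of Clec2d (-1.35) was lost without any of the 8 libraries save MHC II-low dura replicate 1 (-1.43 to -1.02). Of 15 scavenger receptor genes, 6 were called lower, among them Timd4, a phosphatidylserine receptor gene, at 4.73–14.8 CPM in choroid plexus and 118–132 CPM in MHC II-low dura libraries, and Cd36, a receptor for oxidised lipids, at 276–334 CPM in choroid plexus and 667–905 CPM in MHC II-low dura libraries. The 2 called higher were Cxcl16, at 706–788 CPM in choroid plexus and 176–212 CPM in MHC II-low dura libraries, and Lrp1, whose call was lost without choroid plexus replicate 4 (0.98, with all libraries 1.04). The call of Cd5l, at most 2.20 CPM in either group, was lost without choroid plexus replicate 2 or 4 or MHC II-low dura replicate 1 (-1.39 to -1.34, with all libraries -1.58).

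Slc40a1 encodes ferroportin, the exporter of iron from cells, and was at 55.4, 47.3, 40.01 and 44.1 CPM in the choroid plexus and 1021, 1182, 1146 and 856 CPM in MHC II-low dura (-4.49 ± 0.25, adjusted p = 3.06e-10). The groups stood far apart, with 55.4 CPM in the highest choroid plexus library and 856 CPM in the lowest dura library. Tfrc, the transferrin receptor gene, averaged 7.72 ± 2.01 CPM in choroid plexus and 49.3 ± 5.72 CPM in MHC II-low dura libraries, Blvrb, a biliverdin reductase gene, 90.1 ± 9.37 CPM in the choroid plexus and 194 ± 27.4 CPM in MHC II-low dura, and Spic, a transcription factor gene of iron-recycling macrophages, 12.5 ± 3.39 CPM in choroid plexus and 27.5 ± 3.25 CPM in MHC II-low dura libraries. With Cd163 these were the 5 of 16 iron and heme genes called lower, and 0 were called higher. The ferritin genes Ftl1 and Fth1 were not called and had log2 fold changes of -0.53 and 0.24. Hmox1, which encodes heme oxygenase 1, was not called with all libraries (-0.89) and was called lower without choroid plexus replicate 2 (-1.12).

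Of 15 complement genes, 5 were called lower and 0 higher. Cfp encodes properdin, which stabilises the convertase of the alternative pathway, and was at 13.2, 7.78, 11.4 and 10.8 CPM in choroid plexus macrophages, against 622, 706, 869 and 592 CPM in MHC II-low dura macrophages (-6.01 ± 0.19, adjusted p = 1.97e-14). Cfb, the factor B gene of the same pathway, was at 9.46, 7.32, 12.5 and 13.3 CPM in choroid plexus libraries, against 166, 40.5, 73.2 and 140.5 CPM in MHC II-low dura libraries. Both were lower in every choroid plexus library than in any MHC II-low dura library. Vsig4, a complement receptor gene of tissue macrophages, was at 0–0.572 CPM in choroid plexus and 6.77–12.8 CPM in MHC II-low dura libraries, and C3 at 25.6–33.2 CPM in choroid plexus and 58.4–96.6 CPM in MHC II-low dura libraries. C4b was called lower with all libraries (-1.20) and lost its call without any choroid plexus library or MHC II-low dura replicate 1 or 4 (-1.29 to -1.02). C1qa, which encodes a chain of C1q, was not called and averaged 4276 ± 270.2 CPM in the choroid plexus and 3547 ± 282 CPM in MHC II-low dura, and the log2 fold changes of C1qb and C1qc, not called either, were 0.16 and 0.23. Much of the exon length of Cfb (79.5%) overlaps another gene model.

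MHC class II genes are what the dura group was separated by, per its label, so their difference describes the populations and is not a finding. H2-Aa, an alpha chain gene, was at 5448, 5954, 7393 and 6152 CPM in the choroid plexus and 178, 178, 186 and 201 CPM in MHC II-low dura. MHC II-high dura libraries held 6887–7451 CPM, so the choroid plexus libraries reached from below that range into it. Cd74, the invariant chain gene, averaged 30271 ± 4509 CPM in choroid plexus and 1581 ± 49.5 CPM in MHC II-low dura libraries, and Ciita, the transactivator of class II genes, was at 82.6, 101, 130.05 and 118 CPM in choroid plexus macrophages, against 15.9, 10.3, 7.57 and 6.87 CPM in MHC II-low dura macrophages. All 10 class II genes tested were called higher, with a median log2 fold change of 2.97. The peptide-loading genes H2-DMa and H2-DMb1 had changes of 2.39 and 2.42, under those of the chains H2-Aa (5.07), H2-Ab1 (4.96) and H2-Eb1 (5.395). The H2 genes are related in sequence, so reads may be split between them. The start windows of H2-Aa and H2-Eb1 are printed to show letters that both share, from RefSeq GRCm38.p6, with CTGATTGG, the textbook Y box of class II promoters, in capitals.
H2-Aa, chr17:34287774-34288073, minus strand: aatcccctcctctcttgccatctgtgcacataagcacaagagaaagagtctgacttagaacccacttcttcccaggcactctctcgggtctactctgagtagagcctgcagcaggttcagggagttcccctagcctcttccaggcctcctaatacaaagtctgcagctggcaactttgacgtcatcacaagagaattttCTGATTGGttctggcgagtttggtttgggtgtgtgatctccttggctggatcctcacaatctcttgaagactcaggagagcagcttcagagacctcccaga
H2-Eb1, chr17:34305617-34305916, plus strand: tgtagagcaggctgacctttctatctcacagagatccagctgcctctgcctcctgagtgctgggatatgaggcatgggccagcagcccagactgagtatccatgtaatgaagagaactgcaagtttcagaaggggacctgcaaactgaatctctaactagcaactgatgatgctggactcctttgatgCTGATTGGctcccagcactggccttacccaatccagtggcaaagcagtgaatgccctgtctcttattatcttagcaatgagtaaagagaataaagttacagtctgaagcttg
On either strand these letters occur in 1342 of 32817 start windows (4.09%), and the match says nothing of binding here.

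Costimulatory and checkpoint ligands did not move as one. Icosl, the ligand of ICOS on T cells, averaged 202 ± 24.4 CPM in the choroid plexus and 72.0 ± 3.67 CPM in MHC II-low dura, and Cd276, which encodes B7-H3, averaged 62.9 ± 5.11 CPM in choroid plexus and 10.4 ± 2.53 CPM in MHC II-low dura libraries, and these were the 2 of 9 called higher. Cd274, which encodes PD-L1, was the gene called lower, at 10.9, 10.9, 9.55 and 18.2 CPM in choroid plexus libraries, against 33.3, 25.4, 35.0 and 33.03 CPM in MHC II-low dura libraries, and its choroid plexus replicate 4 stood above the other choroid plexus libraries and below every dura library. The log2 fold change of Cd40, which was not called, was -0.63 ± 0.15.

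Microglia markers went both ways. Tmem119, a membrane protein gene of microglia, was at 888, 874, 974 and 778 CPM in the choroid plexus and 95.2, 166, 103 and 93.3 CPM in MHC II-low dura (2.94 ± 0.22, adjusted p = 7.14e-09). Olfml3, a secreted protein gene, was at 912, 909, 954 and 903 CPM in choroid plexus macrophages, against 183, 237, 169 and 168 CPM in MHC II-low dura macrophages (2.28 ± 0.14, adjusted p = 6.06e-10). In both, every choroid plexus library stood above every MHC II-low dura library, and microglia stood higher still, at 4374–6124 CPM and 2509–3409 CPM. Cx3cr1, the fractalkine receptor gene, averaged 2811 ± 292 CPM in the choroid plexus and 977 ± 78.9 CPM in MHC II-low dura. Sall1, the transcription factor gene that defines microglia, was at 0.0739, 0, 0.0677 and 0.0635 CPM in choroid plexus libraries, against 8.44, 8.13, 11.001 and 12.1 CPM in MHC II-low dura libraries. Microglia held 272–483 CPM of Sall1, and this defining marker was under the floor in the choroid plexus. Sall3, Crybb1, Adgrg1 and Slc2a5 were also called lower, with 1 count of Sall3 in the choroid plexus, and log2 fold changes of -2.87, -2.83 and -2.06 for the others. P2ry12 and Siglech, a purinergic receptor and a lectin gene of microglia, were not called, with log2 fold changes of -0.40 and -0.17. Of 18 microglia markers tested, 4 were called higher and 5 lower.

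Genes of TGF-beta and BMP signalling were more often called higher. Of 18 tested, 8 were called higher and 1 lower, with a median log2 fold change of 0.90. Tgfbr1, a receptor kinase gene, was at 1113, 1006, 903 and 770.4 CPM in the choroid plexus and 334, 389, 269.9 and 341 CPM in MHC II-low dura (1.51 ± 0.15, adjusted p = 5.34e-07), and its partner Tgfbr2 was not called (-0.13). Acvrl1, which encodes ALK1, averaged 172 ± 14.2 CPM in choroid plexus and 59.7 ± 6.78 CPM in MHC II-low dura libraries. The inhibitory gene Smad7 averaged 43.5 ± 4.31 CPM in the choroid plexus and 14.3 ± 1.92 CPM in MHC II-low dura, and Smad6 22.1 ± 7.78 CPM in choroid plexus and 4.83 ± 0.672 CPM in MHC II-low dura libraries. The groups did not overlap for these 4 called genes. The target genes Id1 and Id3 and the co-receptor gene Tgfbr3 were called higher too and belong to the microglia 3 class, and 5 genes were called with the classes taken out. Without choroid plexus replicate 4 the count was 6, as Ltbp1, which encodes a latency protein, and Tgfbr3 lost their calls (1.53 and 1.68, with all libraries 1.83 and 1.92). Tgfbr3 also lost its call without choroid plexus replicate 1 or 3 or MHC II-low dura replicate 1, 3 or 4 (1.74 to 2.02). Bmp2, a ligand gene, was called lower with all libraries (-1.10), and not without choroid plexus replicate 4 (-0.95) or MHC II-low dura replicate 3 (-0.91). Pmepa1, a TGF-beta target gene outside the list and added after its values were seen, was at 642–769.9 CPM in choroid plexus and 123–173 CPM in MHC II-low dura libraries (2.38 ± 0.15, adjusted p = 9.34e-10).

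Transcription factor genes were mostly not called, with 4 of 29 higher and 4 lower. Runx3, a factor of mononuclear phagocytes and lymphocytes, was at 44.8, 61.1, 53.8 and 72.9 CPM in choroid plexus macrophages, against 5.56, 8.10, 4.56 and 5.15 CPM in MHC II-low dura macrophages (3.31 ± 0.28, adjusted p = 4.09e-08). It was higher in every choroid plexus library, and MHC II-high dura held 23.3–32.1 CPM. Gata6, which peritoneal macrophages express, was at 3.40, 1.45, 4.87 and 9.02 CPM in choroid plexus libraries, against 0.530, 0, 0.301 and 0.106 CPM in MHC II-low dura libraries and belonged to the choroid plexus 4 class. Id1 and Id3 made up the other higher calls, so with the classes taken out the count was 1. Tfec, a factor related to MITF, was lower, at 2.73, 2.97, 1.96 and 2.67 CPM in the choroid plexus and 18.5, 22.3, 22.9 and 23.3 CPM in MHC II-low dura (-3.07 ± 0.34, adjusted p = 1.68e-06). The call of Bhlhe41 (-1.47) was lost without choroid plexus replicate 1 or 4 or MHC II-low dura replicate 1 or 4 (-1.44 to -1.17). The macrophage factors Spi1, Maf and Irf8 were not called, at 0.27, -0.36 and 0.58.

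Most called growth factor genes were lower in the choroid plexus. Pdgfc, a platelet-derived growth factor gene, was at 3.55, 4.22, 5.08 and 2.35 CPM in choroid plexus macrophages, against 101, 50.5, 78.3 and 63.7 CPM in MHC II-low dura macrophages (-4.27 ± 0.42, adjusted p = 6.62e-07). Igf1, which encodes insulin-like growth factor 1, averaged 94.9 ± 5.67 CPM in the choroid plexus and 329 ± 17.9 CPM in MHC II-low dura, and Gas6, the ligand gene of the TAM receptors, averaged 859 ± 28.3 CPM in choroid plexus and 1869 ± 82.5 CPM in MHC II-low dura libraries. Gdf15 and Hbegf had log2 fold changes of -3.10 and -2.03. With Bmp2, whose call rested on single libraries, 6 of 14 were called lower. Pdgfb, at 108–123 CPM in choroid plexus and 31.8–48.2 CPM in MHC II-low dura libraries, and the vascular growth factor gene Vegfa, at 6.86–11.3 CPM in choroid plexus and 2.01–3.50 CPM in MHC II-low dura libraries, were the 2 called higher. So Pdgfc and Pdgfb, of one family, changed in opposite directions.

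Chemokine genes also split. Ccl8, a monocyte chemoattractant gene, was at 3.92, 4.02, 9.14 and 15.8 CPM in choroid plexus libraries, against 646, 253, 379 and 456 CPM in MHC II-low dura libraries (-5.71 ± 0.43, adjusted p = 4.81e-08). Ccl24, an eotaxin, was at 16.3, 24.6, 20.6 and 15.6 CPM in the choroid plexus and 151, 223, 200.2 and 133 CPM in MHC II-low dura (-3.20 ± 0.26, adjusted p = 5.26e-08). Their libraries did not overlap between the groups. The related genes Ccl2 and Ccl7 were lower too, at -1.20 and -1.48, and DESeq2 did not call Ccl7. Ccl9 had a change of -1.12, and the call of Ccl6 (-1.02) was lost without choroid plexus replicate 1 or MHC II-low dura replicate 1 or 3 (-0.99 to -0.95). Ccl4, which encodes MIP-1beta, was at 686, 1876, 1929.8 and 776 CPM in choroid plexus macrophages, against 274, 328, 385 and 325 CPM in MHC II-low dura macrophages (2.00 ± 0.32, adjusted p = 1.67e-04), and Ccl3 at 617, 1735, 1698 and 737 CPM in choroid plexus libraries, against 300.4, 427, 439 and 421 CPM in MHC II-low dura libraries (1.59 ± 0.28, adjusted p = 3.19e-04). In both, choroid plexus replicates 2 and 3 stood apart from replicates 1 and 4, and all 4 stood above the dura libraries. Cxcl14 and Cxcl16 were the other genes called higher, with changes of 2.74 and 1.94. In total 4 of 18 chemokine genes were called higher and 7 lower.

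Among receptors for chemoattractants, 4 of 12 were called higher and 1 lower. Cxcr4, the receptor gene for CXCL12, averaged 32.9 ± 10.6 CPM in the choroid plexus and 12.2 ± 2.66 CPM in MHC II-low dura. Ackr3, a decoy receptor gene, was at 2.64–3.45 CPM in choroid plexus and 0–0.564 CPM in MHC II-low dura libraries, and was among the higher ones with Cxcr4 and Cx3cr1. Fpr1, a receptor gene for formylated peptides, was the lower one, at 16.6–22.1 CPM in choroid plexus and 49.6–68.7 CPM in MHC II-low dura libraries. Ccr2, the receptor gene of monocytes, was not called and averaged 87.6 ± 25.3 CPM in choroid plexus and 106 ± 19.6 CPM in MHC II-low dura libraries. Il10, an anti-inflammatory cytokine gene, was at 3.69, 7.19, 8.73 and 6.48 CPM in the choroid plexus and 69.3, 46.5, 84.8 and 61.5 CPM in MHC II-low dura (-3.32 ± 0.44, adjusted p = 1.91e-05), and Il1a averaged 18.2 ± 8.35 CPM in the choroid plexus and 50.2 ± 8.46 CPM in MHC II-low dura. The call of Il6, at most 1.73 CPM in either group, was lost without choroid plexus replicate 1 or 4 or MHC II-low dura replicate 3 or 4 (-1.72 to -1.41, with all libraries -1.78). Il1b, at 263, 575, 662 and 301 CPM in choroid plexus macrophages, against 109.9, 162, 198 and 142 CPM in MHC II-low dura macrophages, and Tnfsf13b, which encodes the B cell factor BAFF, at 41.1, 53.6, 55.0 and 47.0 CPM in choroid plexus libraries, against 12.1, 13.6, 7.84 and 11.8 CPM in MHC II-low dura libraries, were called higher. Tnf was not called (0.87), and was without choroid plexus replicate 1 (1.10).

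Receptors at the cell surface gave single calls in several families. In lists of this size single calls are near the share over all genes tested, 8.63% higher and 4.18% lower, and do not mark a family out. Fcgr4, an activating Fc receptor gene, averaged 145 ± 41.5 CPM in choroid plexus and 38.1 ± 4.67 CPM in MHC II-low dura libraries, and Fcgrt, the neonatal Fc receptor gene, averaged 536 ± 20.2 CPM in the choroid plexus and 1376 ± 170.5 CPM in MHC II-low dura, and they were the calls among 8 Fc receptor genes. Siglece was higher, at 227–294 CPM in choroid plexus and 78.6–95.1 CPM in MHC II-low dura libraries, and Cd22 lower, at 19.6–23.4 CPM in choroid plexus and 39.3–58.8 CPM in MHC II-low dura libraries, among 7 Siglec genes. Tlr5, the flagellin receptor gene, fell (-1.74 ± 0.26, adjusted p = 4.77e-05), with levels of 11.8–18.5 CPM in choroid plexus and 48.2–54.7 CPM in MHC II-low dura libraries. Of the other 11 Toll-like receptor genes tested Tlr9 was called higher (1.54), a call lost without choroid plexus replicate 2, 3 or 4 or MHC II-low dura replicate 1 or 2 (1.29 to 1.55). Of 13 purinergic genes P2ry2 was called lower (-1.38), and the call was lost without any library save MHC II-low dura replicate 1 or 2 (-1.52 to -0.97). Integrin genes had 4 of 15 higher calls and 0 lower ones. Itga6, at 381–483 CPM in choroid plexus and 164–185 CPM in MHC II-low dura libraries, Itgb5, at 1601–1949 CPM in choroid plexus and 683–883 CPM in MHC II-low dura libraries, and Itga1, at 4.09–6.67 CPM in choroid plexus and 0.0643–0.8289 CPM in MHC II-low dura libraries, kept theirs in each fit without a library. Itgb8 (4.70), of the microglia 3 class, lost its call without choroid plexus replicate 1 or any MHC II-low dura library (4.28 to 5.24).

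The largest fall by the naming rule was in a matrix protease. Mmp9 encodes gelatinase B, which cuts denatured and type IV collagen. It had 1 count over the choroid plexus libraries, against 33691 over the MHC II-low dura libraries, where it was at 176, 393, 410.2 and 209 CPM. The ratio was 17741, with a counting interval of 3184–700736. Adam8, a metalloprotease gene, was also lower, at 0.396–0.591 CPM in choroid plexus and 5.24–12.1 CPM in MHC II-low dura libraries. Mmp14, which encodes a membrane-bound collagenase, was higher, at 181, 219, 233 and 214 CPM in the choroid plexus and 51.3, 55.4, 43.3 and 39.6 CPM in MHC II-low dura (2.16 ± 0.22, adjusted p = 8.48e-07). Timp3, an inhibitor gene, was higher too and belonged to the microglia 3 class, and Mmp2 was higher and belonged to the choroid plexus 4 class. Among 13 coagulation and fibrinolysis genes, 5 were lower, with F13a1, Serpinb6a (-2.31), Plaur (-1.53), Thbd (-1.13) and F10 (-3.43). The 2 higher ones were Thbs1, at 112–149 CPM in choroid plexus and 26.3–39.7 CPM in MHC II-low dura libraries, and F3, the tissue factor gene, at 39.9, 30.4, 41.8 and 104 CPM in choroid plexus macrophages, against 5.26, 2.99, 4.14 and 2.54 CPM in MHC II-low dura macrophages, whose replicate 4 stood above the other choroid plexus libraries.

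The remaining falls named by size were in genes of varied function. Hpse, which encodes heparanase, was at 0.132–1.91 CPM in choroid plexus and 77.6–93.1 CPM in MHC II-low dura libraries (-6.60 ± 0.43, adjusted p = 4.55e-09). Fcna, which encodes ficolin A of the lectin pathway, was at 0.330–3.24 CPM in choroid plexus and 134–212 CPM in MHC II-low dura libraries (-6.46 ± 0.43, adjusted p = 6.75e-09). Angptl7, an angiopoietin-like gene, averaged 0.362 ± 0.237 CPM in choroid plexus and 24.1 ± 1.72 CPM in MHC II-low dura libraries. Tslp, a cytokine gene of type 2 immunity, averaged 0.926 ± 0.239 CPM in the choroid plexus and 34.1 ± 4.47 CPM in MHC II-low dura. With Tslp, Ccl24, Mgl2, Cd163 and Mrc1, Retnla made 6 of 11 alternative activation genes called lower, and Socs2, of the choroid plexus 4 class, was the one called higher. Retnla, which encodes RELM-alpha, was at 0.148, 0.396, 2.30 and 0.254 CPM in choroid plexus libraries, against 5.34, 3.44, 6.48 and 8.32 CPM in MHC II-low dura libraries. Further falls in neither class, chosen after their values were seen, were Pla2g2d, a secreted phospholipase gene, at 18.99, 23.1, 22.1 and 18.4 CPM in the choroid plexus and 514, 507, 512 and 521 CPM in MHC II-low dura (-4.64 ± 0.16, adjusted p = 9.07e-14), Ednrb, the endothelin B receptor gene, at 6.99–15.0 CPM in choroid plexus and 240.2–358 CPM in MHC II-low dura libraries, and Cd28, at 0.406–2.11 CPM in choroid plexus and 20.4–23.8 CPM in MHC II-low dura libraries. No fall met the rule for genes low in the other 3 populations.

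Rises in neither class were also taken after the values were seen. They came from called genes without overlap between the groups. Each averaged 20 CPM or more in the choroid plexus and 5 CPM or more in MHC II-high dura or peritoneal macrophages. There were 16 such genes named. F11r, which encodes the junction protein JAM-A, was at 487, 497, 494 and 425 CPM in choroid plexus macrophages, against 71.9, 90.8, 63.0 and 71.9 CPM in MHC II-low dura macrophages (2.68 ± 0.13, adjusted p = 1.73e-11). Lilra5, an immunoglobulin-like receptor gene, was at 359, 379, 394 and 372 CPM in choroid plexus libraries, against 53.7, 70.1, 52.0 and 75.9 CPM in MHC II-low dura libraries (2.58 ± 0.13, adjusted p = 1.83e-11). Tle1, a co-repressor gene, averaged 168 ± 10.6 CPM in choroid plexus and 26.9 ± 4.10 CPM in MHC II-low dura libraries, and Klra2, a lectin-like receptor gene, averaged 62.5 ± 8.08 CPM in the choroid plexus and 8.43 ± 3.36 CPM in MHC II-low dura. The groups did not overlap for these 4 genes, as the choice required. Jag1, a Notch ligand gene, was at 32.2–53.6 CPM in choroid plexus and 3.84–8.93 CPM in MHC II-low dura libraries, and Ctse, which encodes cathepsin E, at 17.9–25.5 CPM in choroid plexus and 1.43–4.69 CPM in MHC II-low dura libraries. The collagen genes Col14a1, Col4a1 and Col4a2, with changes of 3.59, 3.15 and 2.47, and Bcam, a laminin receptor gene (4.16), are also expressed by stromal or epithelial cells, and what part those cells had was not tested. Stbd1, Lsr and Tns2 completed the set, at 3.01, 2.99 and 2.71, and 44.7% of the exon bases of Lsr overlap another gene model. Outside that set, Plbd1, a phospholipase-like gene, averaged 305 ± 7.04 CPM in choroid plexus and 61.5 ± 11.8 CPM in MHC II-low dura libraries, and Cadm1, an adhesion gene, averaged 197 ± 11.2 CPM in the choroid plexus and 35.9 ± 7.78 CPM in MHC II-low dura.

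Monocyte genes were called lower or not at all, and dendritic cell genes were called both ways. Among 12 monocyte genes, 6 were called lower and 0 higher, with a median log2 fold change of -2.66. Lyz2, the lysozyme gene, averaged 8499 ± 964 CPM in choroid plexus and 9035 ± 489 CPM in MHC II-low dura libraries and was not called. Among the lower ones were Hp, S100a4, Ifitm6, S100a6 and Fn1, the last at 1.92–3.43 CPM in choroid plexus and 9.72–25.5 CPM in MHC II-low dura libraries, and the lower ones other than Fn1 at most 8.21 CPM in any library of either group. Of 11 dendritic cell genes, Batf3, Clec9a and Flt3 were called higher and Cd209a, Napsa and Zbtb46 lower. Batf3, at 12.9–17.7 CPM in choroid plexus and 3.09–5.32 CPM in MHC II-low dura libraries, and Zbtb46, at 8.67–11.01 CPM in choroid plexus and 19.9–28.8 CPM in MHC II-low dura libraries, kept their calls in every fit. Clec9a was not called without choroid plexus replicate 4 (3.88, with all libraries 4.65), nor Flt3 without choroid plexus replicate 3 or MHC II-low dura replicate 4 (1.92 and 2.01, with all libraries 2.18).

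Of 16 genes of lipid handling, 2 were called higher and 2 lower. Over all genes tested 8.63% were called higher and 4.18% lower, so the few calls in this list and the next 2 do not mark them out. Ch25h, which encodes the cholesterol 25-hydroxylase, was at 80.1, 125, 124 and 118 CPM in the choroid plexus and 21.1, 22.0, 24.0 and 25.4 CPM in MHC II-low dura (2.27 ± 0.33, adjusted p = 1.19e-04), and Scd2, a desaturase gene, averaged 68.0 ± 16.8 CPM in the choroid plexus and 13.98 ± 2.17 CPM in MHC II-low dura. Plin2, a lipid droplet gene, and Pltp, a phospholipid transfer gene, were lower, at -1.42 and -1.36. Apoe, which was among the most abundant transcripts of both groups, was not called and averaged 43639 ± 2964 CPM in choroid plexus and 34128 ± 3993 CPM in MHC II-low dura libraries. Trem2 and Lpl were not called (0.56 and -0.68). Of 20 lysosomal genes, 2 were called higher, Ctss among them, and Ctsd lower. Ctss, the cathepsin gene that trims the invariant chain, averaged 4876 ± 298 CPM in the choroid plexus and 2183 ± 278 CPM in MHC II-low dura. Ctsd had a change of -1.08 and was not called without MHC II-low dura replicate 2 (-0.999), and 34.4% of its exon bases overlap another gene model. Among 18 disease-associated microglia genes, Igf1 and Lgals3 were lower, and Axl was higher (1.04), a call lost without any of the 8 libraries save MHC II-low dura replicate 1 (0.98 to 1.09).

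Calls among stress, interferon and cycle genes changed when single libraries were left out. Of 16 immediate early and heat shock genes, 3 were called lower, Hspa1b, Fosb and Dnajb1, and 0 without choroid plexus replicate 1 or MHC II-low dura replicate 1 or 3. Their log2 fold changes were -1.53, -1.09 and -1.02, and without choroid plexus replicate 1 they were -1.33, -0.87 and -0.88. Without choroid plexus replicate 4, Hspa1b alone was called. Fosb was at 188, 583, 542 and 181 CPM in choroid plexus macrophages, against 765, 702, 964 and 741 CPM in MHC II-low dura macrophages, with choroid plexus replicates 1 and 4 low and 2 and 3 higher, the grouping that Ccl3 and Ccl4 had. Of 15 interferon genes, Mx1 was called lower (-1.94), and not without MHC II-low dura replicate 3 (-1.68). With only the 8 libraries in the fit, 5 interferon genes were called lower, Ifit1, Ifit2 and Rsad2 among them. Of 12 proliferation genes, edgeR's test and DESeq2 called 0 with all libraries, 3 were lower at an unadjusted p under 0.05, and 3 were called lower without MHC II-low dura replicate 2 and 1 without replicate 3. Mki67, a gene of cycling cells, was at 7.24, 15.6, 10.5 and 11.4 CPM in choroid plexus libraries, against 37.8, 11.3, 13.5 and 20.5 CPM in MHC II-low dura libraries.

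**Figure D5:**
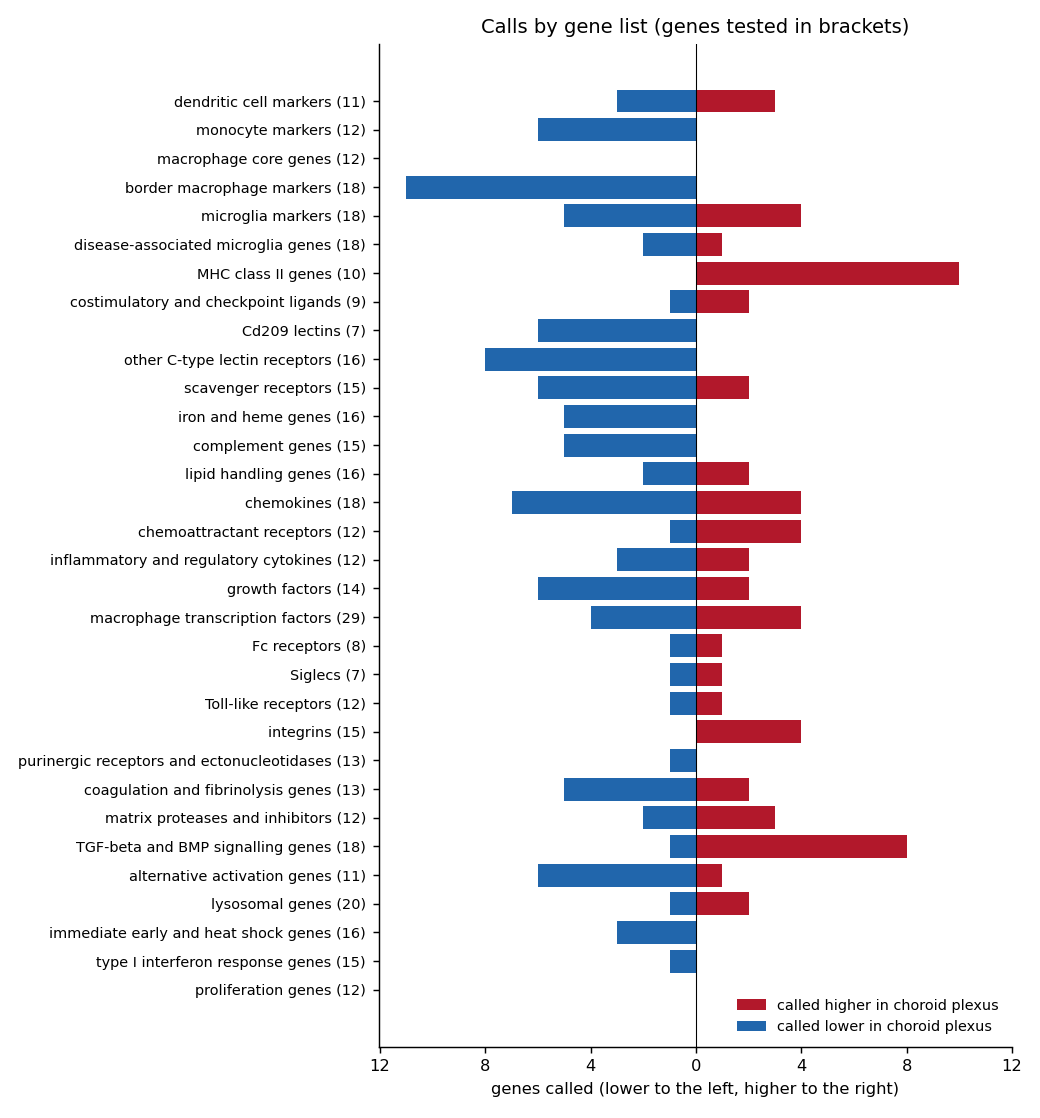
Genes called higher (to the right) and lower (to the left) in the choroid plexus in each macrophage or myeloid list, with the number tested in brackets. MHC class II genes (10 of 10) lie to the right only, border macrophage markers (11 of 18) and Cd209 lectins (6 of 7) to the left only, and no bar stands for the core genes.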

How the data were processed

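RNA was sequenced from 5 macrophage populations with 4 libraries each, and the libraries were grouped by their labels. The authors deposited raw read counts per gene symbol for each library, made from reads mapped to mm10; the submitters' processing notes name TopHat2 2.1.0 and, besides it, SAMtools 0.1.18, Trimmomatic 0.38 and FastQC 0.11.4. The program that counted, its annotation and its strand option were not given in the sources used here. Without a stated strand, reads of a gene and of an overlapping one cannot be told apart. The models that overlap Folr2, Cfb, Ctsd and Lsr are not among the counted symbols. Among other named genes, Serpinb6a, Timp3, Pltp and Cxcl16 share 29.3%, 21.3%, 19.3% and 18.3% of their exon bases with counted symbols. The 5 summary lines per file that name no gene were kept out of totals and tests; reads with no feature were 7.39–10.5% of all counts in choroid plexus and 6.61–8.24% in MHC II-low dura libraries, and ambiguous reads 0.977–1.05% and 1.01–1.11%. No library was a repeat of another, as every pair within a group differed by a chi-square of at least 10.1 per gene.

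All 20 libraries were fitted together with edgeR 4.0.16 in R 4.3.3 (limma 3.58.1), with its filter on low counts, TMM factors of 0.923–1.05 and the robust quasi-likelihood F test on 15 residual degrees of freedom. Every adjusted p is from this test with Benjamini-Hochberg adjustment over 13960 of 24421 symbols. Standard errors are the log2 fold change divided by the root of F and are approximate. Intervals are exact binomial at 95%, and with reads lacking molecular identifiers they cover counting error only, as do the floors of 3 counts. On simulated counts for the 13960 genes of this comparison, 50 genes each were changed by 1, 1.5, 2 and 3 on the log2 scale. The test gave an adjusted p under 0.05 in the right direction for 34%, 90%, 100% and 100% of them. Of the unchanged genes, 9 had an adjusted p under 0.05. The 2-fold limit was not applied here. Changed genes were drawn from the more abundant ones, and all genes had the same spread setting.

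The 45 lists (515 genes, 480 tested), the members and the tests were chosen with earlier results of these data known. The naming rule took the marker genes, the 12 largest changes each way among called, non-overlapping genes of at least 20 CPM in the higher group and 5 CPM in another population, the 6 largest with less than that in the other populations, and up to 4 genes per list. The 16 largest rises and falls in neither class came from the same called, non-overlapping genes. They and single further genes were added after their values were seen. Alternatives were DESeq2 1.42.0, other scalings, no filter, the 8 libraries alone, thinning to 13383274 counts, a replicate block, each library left out, and 2 added after the data were seen. Gene positions are from GENCODE M21 (GRCm38, the same assembly as mm10), in which 23376 symbols matched, and start windows are from RefSeq. A few genes that the lists or the naming rule hold are not reported here by name.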

Additional observations from a re-analysis of the deposited data

Results flagged for a closer look

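Among 492 groups of 4 libraries, taken over 269 named genes, 22 held a library farther from the others than Dixon's 95% limit allows, and chance alone does this in about 1 in 20 groups. Choroid plexus replicate 4 was high for the fibroblast genes Col1a1, at 207 CPM (62.7–81.0 CPM in the others), Lum, at 188 CPM (57.6–72.0 CPM in the others), and Bgn, at 87.3 CPM (22.4–32.2 CPM in the others). It was also high for F3, at 104 CPM (30.4–41.8 CPM in the others), and Cd274, at 18.2 CPM (9.55–10.9 CPM in the others), and low for F11r, at 425 CPM (487–497 CPM in the others). Choroid plexus replicate 3 was high for Batf3, at 17.7 CPM (12.9–13.7 CPM in the others), Olfml3, at 954 CPM (903–912 CPM in the others), and Retnla, at 2.30 CPM (0.148–0.396 CPM in the others). Choroid plexus replicate 1 was low for Ch25h, at 80.1 CPM (118–125 CPM in the others).

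In MHC II-low dura, replicate 2 was high for Tmem119, at 166 CPM (93.3–103 CPM in the others), P2ry13, at 392 CPM (353–359 CPM in the others), and Stab1, at 3499 CPM (2736–2831 CPM in the others). It was high as well for Col1a2, at 75.6 CPM (44.2–47.5 CPM in the others), Slc47a1, at 9.35 CPM (4.18–4.73 CPM in the others), and Pmepa1, at 173 CPM (123–129 CPM in the others). Replicate 3 was high for Tcf21, at 1.09 CPM (0.161–0.303 CPM in the others), and Gdf15, at 38.9 CPM (16.2–18.4 CPM in the others). Replicate 1 was high for Cd163, at 1326 CPM (1057–1063 CPM in the others), and low for Ccl3, at 300.4 CPM (421–439 CPM in the others). Replicate 4 was high for Mag, at 17.0 CPM (11.96–12.8 CPM in the others), and low for Spi1, at 409 CPM (447–454 CPM in the others). Outside the comparison, the epithelial list summed to 21958 CPM in microglia replicate 3 and to 76.0–762 CPM in the other microglia libraries.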

How the results depend on the processing

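The counts of called genes, 1788 in all, 1205 higher and 583 lower, stayed within 1.5 times of these values under every alternative run save one: with the genes of both classes and of other cells taken out, 709 genes were called higher, a construction that removes higher genes. DESeq2 called 1290 higher and 618 lower, and 1709 of the calls were shared. Without 1 of the 8 libraries the total ran from 1528 to 1720, the higher genes from 1020 to 1124 and the lower genes from 506 to 598. Without microglia replicate 3, 1983 genes were called. Same-numbered libraries of the groups did not deviate together over all genes (correlations of -0.13 to 0.11 over genes, not independent replicates). Such correlations cannot decide whether same-numbered libraries belong together, and the labels do not say. The replicate block gave 1765 calls. None of the 269 genes followed through the alternatives changed direction under a run that tested them. S100b and Rn45s were not in that set. Gpr34 and Cd209c, also outside it and uncalled at log2 fold changes of 0.06 and 0.09, changed sign under some and carry no direction here. Among the list counts, 80 of 1446 values over all alternatives moved by more than 1.5 times, most of them counts of 0 to 3 genes. Taking out the classes left 1 of 4 transcription factor and 1 of 3 matrix genes called higher and 5 of 8 TGF-beta genes. With the 8 libraries alone 7 fibroblast genes were called higher, against 4 with all libraries, and 5 interferon genes lower, against 1. The replicate block gave 4 interferon genes lower, against 1, and 1 immediate early gene, against 3. The causes were not tested. Libraries of MHC II-low dura were deeper than those of choroid plexus, and thinned to equal depth the data gave 1747 calls. Genes at or under the floor in one group have no bound from a fitted fold change. The labels name no batch, so none was tested.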

Other observations

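The other populations place several of these genes, as levels only, since they share libraries with the comparison above. Lyve1 averaged 3.18 ± 1.12 CPM in the choroid plexus and 94.9 ± 24.1 CPM in MHC II-high dura macrophages (mean ± SD, n = 4 here and below). Folr2 averaged 26.0 ± 2.11 CPM in the choroid plexus and 277 ± 49.6 CPM in MHC II-high dura. Mmp9, with 1 count in the choroid plexus, averaged 157 ± 61.9 CPM in MHC II-high dura. Runx3 averaged 58.1 ± 11.9 CPM in the choroid plexus and 26.5 ± 3.89 CPM in MHC II-high dura. Tmem119 averaged 878 ± 80.1 CPM in the choroid plexus, 224 ± 34.9 CPM in MHC II-high dura and 13.8 ± 4.42 CPM in peritoneal macrophages. These levels were not tested against each other.

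Within the choroid plexus, replicates 2 and 3 held 1735 and 1698 CPM of Ccl3 and 575 and 662 CPM of Il1b, and replicates 1 and 4 held 617 and 737 CPM and 263 and 301 CPM. Fosb was higher in the same pair of replicates, at 583 and 542 CPM, against 188 and 181 CPM. The labels give no difference between these replicates, and what the pairs share was not tested.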
